A study of Homo sapiens with 12 samples.

Results

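The 8 genes described here are ATF3 and the FOS and JUN genes that encode the subunits of AP-1: FOS, FOSB, FOSL1, FOSL2, JUN, JUNB and JUND. They were found by symbol among 58051 counted genes, and they were selected on their family and with earlier results known, among them the higher ATF3 level in A-498 cells given miR-29. Their values with and without treatment are therefore a description, for which no p-value is given, and nothing is read from the number of members that pass a threshold there. RNA-seq had been made from 3 established human renal cell carcinoma lines, 12 libraries in all, RNA being taken 48 h after transfection with 10 nM of a synthetic RNA. Cells of 786-O (1 library of each kind) and of A-498 (2 of each) received either a mimic of miR-29b, which raises miR-29 activity, or a control mimic. Cells of ACHN (3 libraries of each kind) received either a miR-29 inhibitor, which blocks the endogenous miRNA, or a control inhibitor. All groups, controls included, were transfected with a lipid reagent, so no library shows untreated cells. The libraries of a group are described as biological replicates, but nothing says that cultures were grown independently, so p-values measure the spread between these libraries, which may in part be technical.

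AP-1 is a dimer of basic leucine zipper (bZIP) proteins. JUN proteins can pair with each other or with FOS proteins, while FOS proteins need a JUN partner, and the dimers bind the TGACTCA element or, less tightly, the cyclic AMP response element TGACGTCA. FOS, FOSB, JUN and JUNB are classical immediate-early genes, transcribed within minutes of growth factor or stress signals through MAP kinases and the ternary complex factors, and their mRNAs are short-lived. FOSL1 (FRA-1) and FOSL2 (FRA-2) lack the strong activation domain of FOS and last longer, JUND is present in most resting cells, and ATF3 is a stress-induced bZIP factor that dimerises with JUN proteins and is itself induced downstream of ATF4.

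The mature miR-29 sequences are shown because their seed guides the miRNA to its targets. RefSeq gives the 3 family members on GRCh38.p14 from chromosomes 7 (miR-29a and one copy of miR-29b) and 1 (miR-29c and the other copy of miR-29b), and capitals mark the seed, bases 2 to 8, which is the same in all of them.
hsa-miR-29a-3p: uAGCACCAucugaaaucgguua
hsa-miR-29b-3p: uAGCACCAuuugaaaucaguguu
hsa-miR-29c-3p: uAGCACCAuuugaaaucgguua
Among the annotated canonical 3′ UTRs (GENCODE v44, GRCh38), 2683 of 19228 (14%) held the 7-base match to this seed, TGGTGCT. Of the 8 genes, FOS alone had it in its canonical 3′ UTR, 365 bases after the stop codon at chr14:75281789-75281795 on the plus strand. JUN had the shorter 6-base match GGTGCT, 1125 bases after its stop codon at chr1:58780945-58780950 on the minus strand. Both are printed with their neighbouring bases, the match in capitals, since they are the direct miR-29 matches that the canonical transcripts hold.
FOS: tattggaattaaccTGGTGCTggatatttt
JUN: gaaattttacaataGGTGCTtattctcaaa
FOSB and FOSL1 had a TGGTGCT match only in 1 non-canonical isoform each. ATF3, FOSL2, JUNB and JUND had neither form of the match in any annotated 3′ UTR.

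The promoters were searched on both strands for elements that AP-1 and ATF proteins or stimulus-dependent factors are known to bind, over 300 bases (250 before and 50 after each start) of the RefSeq windows on GRCh38.p14. Windows were given for 7 of the 8 genes (not FOSL1), ATF3 having 2. The element TGACATCA, the variant AP-1 site known from the JUN promoter, was in the JUN window at positions -67 to -60 from the start, and in the upstream ATF3 window at -123 to -116, against 2.61% of 35116 promoter windows. The cyclic AMP response element TGACGTCA lay at -200 to -193 in JUND (1.85% of all windows), and TGACTCA lay at 4 to 10 after the start in FOSL2 (4.95% of all windows). TATAAA was in the FOS, FOSB, JUNB and downstream ATF3 windows (11.5% of all windows), beginning at -33, -30 and -31 in the first 3 genes, where a TATA box usually lies, and at -230 in ATF3. None of the windows of these genes held a CArG box, the serum response factor element (1.29% of all windows). Bases more than 250 before a start were not searched, so an element further upstream would have been missed. The first 3 of the following windows are those with a TGACATCA or TGACGTCA match, in capitals, and the last is the FOS window with its TATAAA in capitals.
JUN, chr1:58783998-58784297, minus strand: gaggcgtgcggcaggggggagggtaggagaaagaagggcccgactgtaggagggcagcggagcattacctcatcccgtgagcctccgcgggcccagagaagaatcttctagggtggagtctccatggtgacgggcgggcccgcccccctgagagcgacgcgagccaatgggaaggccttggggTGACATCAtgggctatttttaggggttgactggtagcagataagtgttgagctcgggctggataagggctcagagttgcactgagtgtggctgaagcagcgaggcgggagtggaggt
ATF3 upstream window, chr1:212565157-212565456, plus strand: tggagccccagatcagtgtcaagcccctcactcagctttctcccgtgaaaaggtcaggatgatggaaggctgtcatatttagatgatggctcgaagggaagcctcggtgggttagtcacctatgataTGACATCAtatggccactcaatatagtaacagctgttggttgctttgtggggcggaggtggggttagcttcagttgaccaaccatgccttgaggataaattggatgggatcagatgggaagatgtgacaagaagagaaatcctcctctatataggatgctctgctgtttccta
JUND, chr19:18281573-18281872, minus strand: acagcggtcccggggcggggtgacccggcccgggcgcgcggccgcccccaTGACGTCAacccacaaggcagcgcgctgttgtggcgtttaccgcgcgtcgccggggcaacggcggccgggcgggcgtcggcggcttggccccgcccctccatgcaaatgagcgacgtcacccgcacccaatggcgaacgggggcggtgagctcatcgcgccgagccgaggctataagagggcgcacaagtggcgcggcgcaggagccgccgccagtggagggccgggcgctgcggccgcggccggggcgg
FOS, chr14:75278578-75278877, plus strand: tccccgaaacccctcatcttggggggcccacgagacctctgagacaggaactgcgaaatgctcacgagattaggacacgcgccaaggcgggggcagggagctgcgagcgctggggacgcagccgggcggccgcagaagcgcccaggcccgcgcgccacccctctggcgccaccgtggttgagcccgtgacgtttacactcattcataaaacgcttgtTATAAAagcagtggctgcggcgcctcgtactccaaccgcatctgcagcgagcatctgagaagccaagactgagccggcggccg
The ATF3 gene (ENSG00000162772, chromosome 1, 212565334 to 212620777) has several annotated starts, and the canonical transcript begins at 212608761, outside both windows. Gene counts do not separate these starts. On GRCh38, JUN also lies on chromosome 1 (ENSG00000177606, 58776845 to 58784048, minus strand), FOSL2 on chromosome 2 (ENSG00000075426, 28392448 to 28417317, plus strand), FOSL1 on chromosome 11 (ENSG00000175592, 65892049 to 65900573, minus strand) and FOS on chromosome 14 (ENSG00000170345, 75278826 to 75282230, plus strand). FOSB (ENSG00000125740, 45467995 to 45475179, plus strand), JUNB (ENSG00000171223, 12791486 to 12793315, plus strand) and JUND (ENSG00000130522, 18279694 to 18281622, minus strand) are all on chromosome 19. The exons of none of the 8 genes overlap those of another gene on the same strand.

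Reads in genes ranged from 39919554 to 70027392 per library. Of 12 genes listed as a check on miR-29 activity, all 11 that were tested fell in A-498 (median log2 change -1.72) and rose in ACHN (1.04), and all 11 were lower in 786-O (median -2.26), among them LOXL2, COL4A1 and SPARC (-3.58, -2.44 and -2.35 in A-498). The 10 renal epithelial markers summed to between 2512 and 4029 CPM in every library (CPM being counts scaled to library size), and CA9 was under 1 CPM in 786-O and ACHN, as was CDH6 in ACHN. Of 10 markers of blood, endothelial and muscle cells, 9 were under 1 CPM in every library, while DES was at 4.32 CPM in control and 1.41 CPM in mimic-treated A-498. Reads that lay in no gene made up 14.3% and 18.3% in 786-O (control and mimic), above the 8.66% to 10.7% of the other libraries. Among the ACHN inhibitor libraries, replicate 2 stood apart: its counts differed from those of replicates 1 and 3 by a chi-square of 10.7 and 12.2 per degree of freedom, against 6.72 between replicates 1 and 3 and 3.87 to 5.15 between controls. Without it, 6112 genes passed in ACHN, against 5680.

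**Figure D1:**
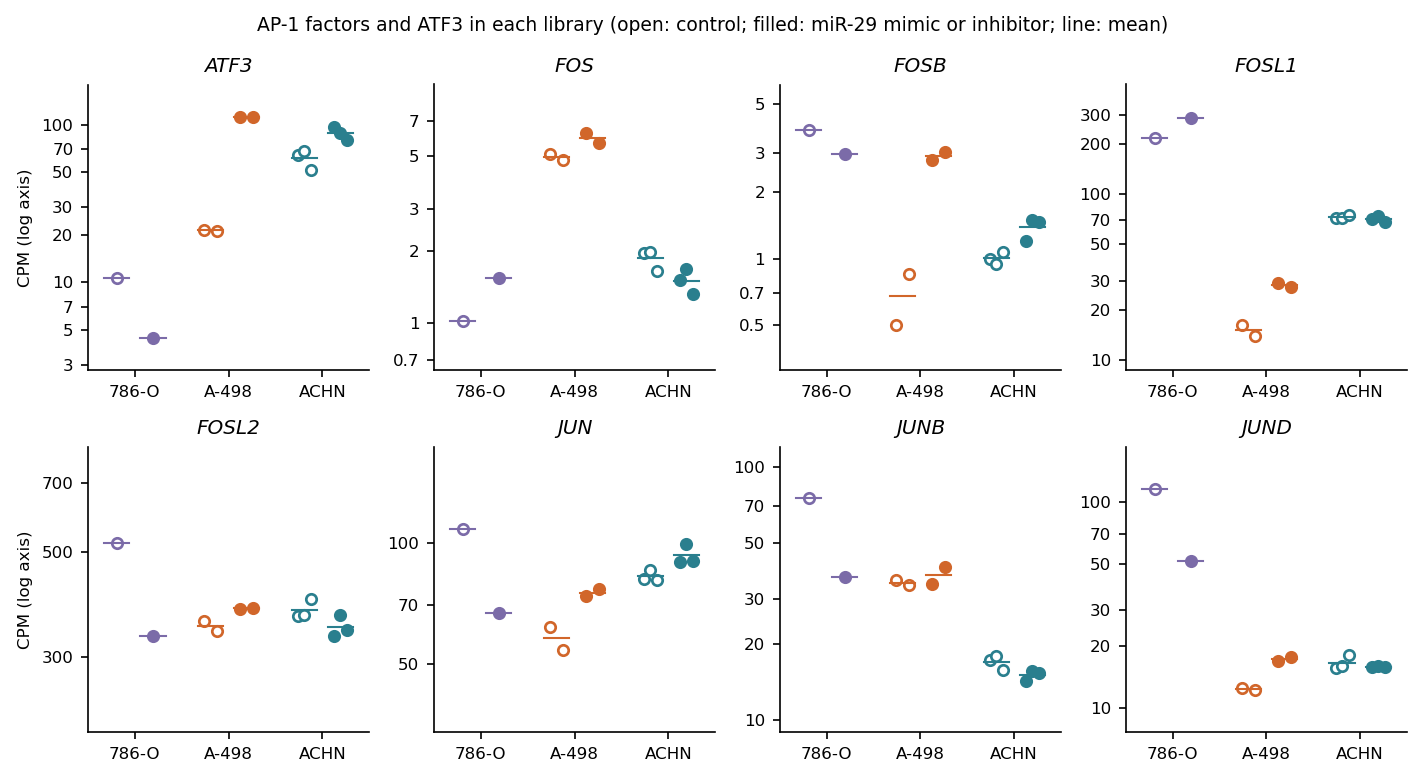
Level of each gene in every library, in CPM on a log axis, with open points for control and filled points for mimic or inhibitor libraries and lines for group means. ATF3 stands at 111 and 112 CPM in the A-498 mimic libraries against 21.6 and 21.1 CPM in the controls, and goes the other way in 786-O.

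ATF3 showed the widest differences of the 8 genes. In A-498 it was at 21.6 and 21.1 CPM with the control mimic and at 111 and 112 CPM with the miR-29 mimic. The groups stood far apart, with 1205 to 7307 counts behind these values, and the log2 difference was 2.40 (SE 0.048), or 5.27-fold. In these bulk libraries more RNA per cell cannot be told apart from a larger share of cells that express the gene. By that difference ATF3 stood 92nd from the top of 19676 genes. In 786-O it went the opposite way, from 10.6 CPM in the control to 4.44 CPM in the mimic library (458 and 188 counts), a log2 ratio of -1.28 in a line without replicates. In ACHN, where miR-29 was inhibited, it was at 63.7, 68.2 and 51.3 CPM in controls and at 96.5, 87.8 and 79.8 CPM with the inhibitor. The groups did not overlap, and the log2 difference was 0.50 (SE 0.081), so ATF3 was higher both where miR-29 was added in A-498 and where it was blocked in ACHN.

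FOS, the founding member of the FOS family and the one with the 7-base seed match in its canonical 3′ UTR, was scarce in all lines. It was at 5.09 and 4.79 CPM in control and 6.19 and 5.65 CPM in mimic-treated A-498, higher by 0.28 on the log2 scale (SE 0.10). In ACHN the 3 controls were at 1.95, 1.99 and 1.65 CPM and the 3 inhibitor libraries at 1.51, 1.68 and 1.32 CPM, groups that overlapped (log2 difference -0.34, SE 0.15). In 786-O only 44 and 65 counts were present, at 1.02 and 1.54 CPM (log2 ratio 0.54), and the counting error alone gave a 95% interval from -0.018 to 1.14. A difference of FOS in 786-O was thus not detectable at this depth.

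FOSB, an immediate-early gene closely related to FOS, was nearly as scarce but differed more. In A-498 it was at 0.501 and 0.854 CPM (28 and 52 counts) in controls and at 2.80 and 3.02 CPM (184 and 181 counts) with the mimic. The log2 difference was 2.10 (SE 0.20), 142nd from the top, though the controls differed from each other, relative to their mean, more than those of any other member. In ACHN it went from 0.998, 0.946 and 1.07 CPM to 1.20, 1.49 and 1.47 CPM (log2 0.44, SE 0.17), without overlap. In 786-O it was at 3.82 and 2.95 CPM (log2 ratio -0.40), with a counting interval from -0.75 to -0.064.

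FOSL1 (FRA-1) is a FOS family member known from invasive carcinoma cells. In A-498 it was at 16.2 and 13.9 CPM in controls and at 29.04 and 27.6 CPM with the mimic, a log2 difference of 0.93 (SE 0.074) with the groups apart. In 786-O it was at 219 and 287 CPM (log2 ratio 0.35), and with FOS, whose interval included 0, it was the other member above its control there. In ACHN it was at 71.4, 71.5 and 75.0 CPM in controls and 70.5, 73.8 and 67.7 CPM with the inhibitor, overlapping groups that differed by -0.06 (SE 0.048) on the log2 scale.

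FOSL2 (FRA-2) had the highest CPM of the 8 genes in every library, and its 3′ UTR, of 4869 bases in the canonical transcript, is the longest among them. It was at 357 and 341 CPM in control and 379.8 and 380.04 CPM in mimic-treated A-498 (log2 0.14, SE 0.036). In 786-O it was at 523 and 332 CPM (log2 ratio -0.69). In ACHN it was at 367, 368 and 397 CPM in controls and at 332, 369 and 342 CPM with the inhibitor (log2 -0.14, SE 0.047), with overlap. In A-498 the difference was thus the smallest of the members but for JUNB, in spite of the high counts behind it.

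JUN, a partner of all FOS proteins, was at 61.8 and 54.4 CPM in control and 73.9 and 76.6 CPM in mimic-treated A-498 (log2 0.39, SE 0.057). In ACHN it was at 81.2, 85.5 and 80.8 CPM in controls and 89.5, 99.4 and 89.9 CPM with the inhibitor (log2 0.15, SE 0.052). In both lines every treated library lay above every control. In 786-O it was at 108 and 67.1 CPM (log2 ratio -0.72), the opposite direction.

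JUNB, a JUN protein with weaker activation of many AP-1 sites, was at 35.7 and 34.0 CPM in control and 34.4 and 40.1 CPM in mimic-treated A-498, overlapping groups with a log2 difference of 0.11 (SE 0.068). In ACHN it was at 17.2, 17.9 and 15.7 CPM in controls and 14.2, 15.5 and 15.3 CPM with the inhibitor (log2 -0.20, SE 0.068). There the inhibitor libraries were all below the controls, if by a narrow gap. In 786-O it was at 75.2 and 36.6 CPM (log2 ratio -1.08). On the opposite strand its exons overlap those of HOOK2. The libraries were stranded, but whether reads were counted by strand was not checked here.

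JUND, the JUN gene known for steady expression in resting cells, was at 12.6 and 12.2 CPM in control and 17.0 and 17.7 CPM in mimic-treated A-498 (log2 0.50, SE 0.068), without overlap. In ACHN it was at 15.7, 16.0 and 18.1 CPM in controls and 15.8, 16.1 and 15.9 CPM with the inhibitor (log2 -0.09, SE 0.068), with overlap. In 786-O it was at 116 and 51.8 CPM (log2 ratio -1.19), so that ATF3, JUNB and JUND were the members past 2-fold there.

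**Figure D2:**
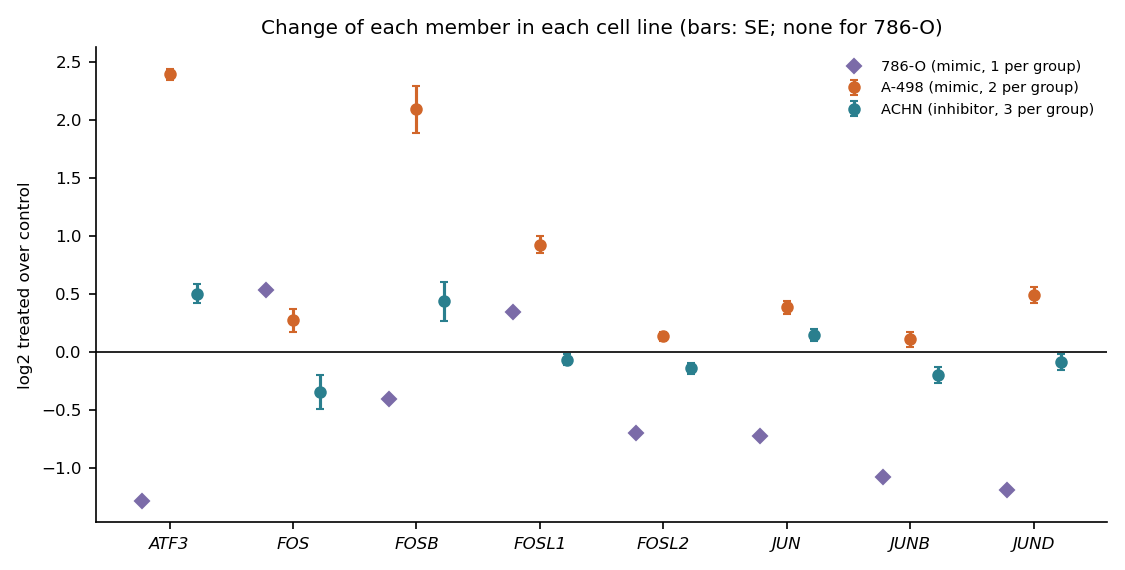
Log2 treated over control for each gene in 786-O (mimic, diamonds, no error bar because there is 1 library per group), A-498 (mimic) and ACHN (inhibitor), with bars for the SE. The A-498 points all lie above 0, from 0.11 for JUNB to 2.40 for ATF3, while 6 of the 8 diamonds of 786-O lie below 0.

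Over the 8 genes, the median log2 difference was 0.44 in A-498, -0.71 in 786-O and -0.07 in ACHN, where all genes tested had medians of 0.0045, -0.0060 and 0.0038. In A-498 all 8 were above 0, and the mimic libraries lay above both controls for 7, the exception being JUNB. Of all genes tested in A-498 the groups were apart in 74.5%, 36.3% higher and 38.2% lower. By edgeR's quasi-likelihood test with an adjusted p under 0.05, 7 of 8 passed there, all higher, against 52.5% of all genes tested (25.5% higher and 27% lower). With library size in place of TMM factors the split of all calls went from 5015 higher and 5313 lower to 6191 higher and 4352 lower, and all 8 members passed. FOS no longer passed with DESeq2, with no filter on low counts, without control replicate 3 or without mimic replicate 1, and FOSL2 no longer passed without mimic replicate 1 or without mimic replicate 2. In ACHN the groups were apart for 4 members, 3 higher and JUNB lower, against 42.7% of all genes tested (25.3% higher and 17.4% lower). There 4 of 8 passed, ATF3 and JUN higher and FOSL2 and JUNB lower, against 31.7% of all genes (17.3% higher and 14.4% lower). ATF3 passed without any single ACHN library, but the count fell to 2 without control replicate 1, 2 or 3 or without inhibitor replicate 3, and JUN did not pass with library size. Without inhibitor replicate 2, ATF3 (0.49), FOSL2 (-0.20) and JUNB (-0.23) passed as before, JUN (0.087) did not, and FOS (-0.44) did. In 786-O, 3 of 8 were past 2-fold, all lower, against 15.7% of 20370 genes (6.73% higher and 8.96% lower). For 5 members (ATF3, FOSB, FOSL2, JUN and JUND) both A-498 mimic libraries lay above both controls while the 786-O mimic library lay below its control, against 11.8% of 17473 genes tested in both lines (25.8% with either direction in A-498). The choice of members rests on these contrasts, so nothing is read from these shares. Genes of like GC content (within 2.5 percentage points) had median log2 differences between -0.073 and 0.029 in the 3 contrasts, so that subtracting them left each member's direction as it was.

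The lines also differed in how much of each gene they contained, a measure that the choice of members did not use. All 8 genes differed between the A-498 and ACHN controls (edgeR on the 6 controls, with 75.3% of 21737 genes called). For 786-O there was 1 control library, whose own spread was not measured. If it is assumed to vary like those of the other lines, all 8 genes also passed against A-498 and against ACHN (74.7% and 73.6% of genes called), but the differences with 786-O are given here as sizes without a p-value. Cell line, control RNA and any difference in handling cannot be told apart here.

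**Figure D3:**
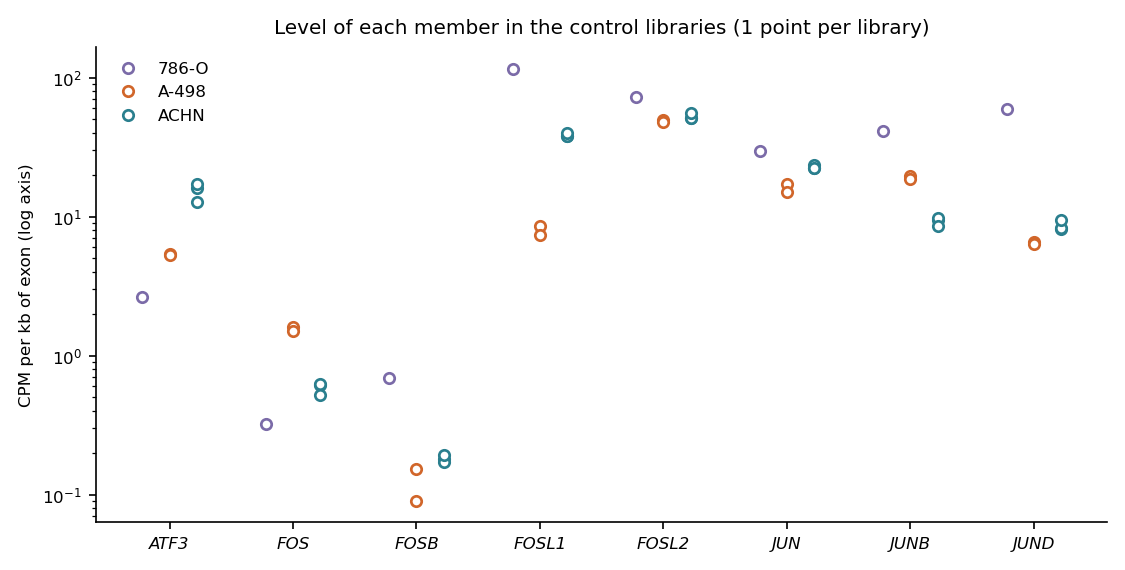
Level of each gene in the control libraries in CPM per kb of exon, on a log axis, with 1 point per library and a colour per line. FOSL1 and JUND are highest in 786-O (116 and 59.9 CPM per kb) and lowest in A-498, and ATF3 is highest in ACHN.

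FOSL1 and JUND were highest in the 786-O control library. It had 15.1-fold more FOSL1 than control A-498 (log2 difference 3.91) and 3.08-fold more than control ACHN (1.62), and ACHN was 4.88-fold above A-498 (log2 difference A-498 minus ACHN -2.29, SE 0.062, adjusted p = 6.76e-25). JUND was 9.64-fold higher in 786-O than in A-498 (log2 difference 3.27) and 7.12-fold higher than in ACHN (2.83), whereas ACHN was above A-498 by only 1.35-fold (adjusted p = 2.56e-06). JUNB followed the order 786-O, A-498, ACHN, at 2.23-fold from the first to the second and 2.03-fold from the second to the third (adjusted p = 2.85e-15 for the latter). JUND and JUNB are the members richest in G and C (69.9% and 64.9% of the longest transcript), and genes of like GC content were themselves higher in 786-O than in A-498, by a median of 0.41 (48 genes) and 0.29 (586 genes) on the log2 scale. With those medians subtracted, the difference was 2.86 for JUND and 0.87 for JUNB, and against ACHN it was 2.26 and 1.87.

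ATF3 and FOS ran the other way. Control ACHN had 5.63-fold more ATF3 than control 786-O (log2 difference 786-O minus ACHN -2.49) and 2.89-fold more than control A-498 (A-498 minus ACHN -1.53, SE 0.080, adjusted p = 2.32e-17). A-498 in turn was 1.95-fold above the 786-O library. FOS was highest in A-498, 4.68-fold above 786-O and 2.61-fold above ACHN (adjusted p = 1.39e-10), and ACHN was 1.79-fold above 786-O, where 44 counts were present.

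FOSB, JUN and FOSL2 were also highest in the 786-O control library. FOSB was 5.76-fold higher there than in A-498 (log2 2.53) and 3.88-fold higher than in ACHN (1.96). JUN was 1.92-fold and 1.34-fold higher in 786-O than in A-498 and ACHN, and FOSL2 was 1.55-fold and 1.42-fold higher. Between A-498 and ACHN, FOSB and FOSL2 differed least securely: -0.57 (SE 0.24, adjusted p = 0.030) and -0.13 (SE 0.044, adjusted p = 0.0094) on the log2 scale. FOSB did not pass without A-498 control replicate 1 (-0.24) or without ACHN control replicate 3 (-0.52), and FOSL2 did not pass without A-498 control replicate 3 (-0.089) or without ACHN control replicate 3 (-0.087). For these genes, A-498 and ACHN are neighbours whose order is not settled by these libraries.

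Per kb of exon, where genes can be compared with each other, the order of the members also depended on the line. In control A-498 and ACHN, FOSL2 led with 48.7 ± 1.5 (SD, n = 2) and 52.7 ± 2.4 (SD, n = 3) CPM per kb. In control 786-O, FOSL1 led with 116 CPM per kb, ahead of FOSL2 at 73.1 and JUND at 59.9. FOS and FOSB came last in every group, at 1.94 CPM per kb or less in each library. ATF3 moved from sixth place in control A-498 (5.34 ± 0.086) to second place with the mimic (27.9 ± 0.18). In that group JUN and JUNB followed at 20.8 ± 0.52 and 20.4 ± 2.2 (SD, n = 2), and in ACHN controls JUNB and JUND stood at 9.25 ± 0.63 and 8.61 ± 0.68 (SD, n = 3), neighbours that did not differ beyond their spread. These values use the summed length of all annotated exons (1830 bases for JUNB to 7162 bases for FOSL2), so a gene whose shorter isoforms prevail is understated.

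**Figure D4:**
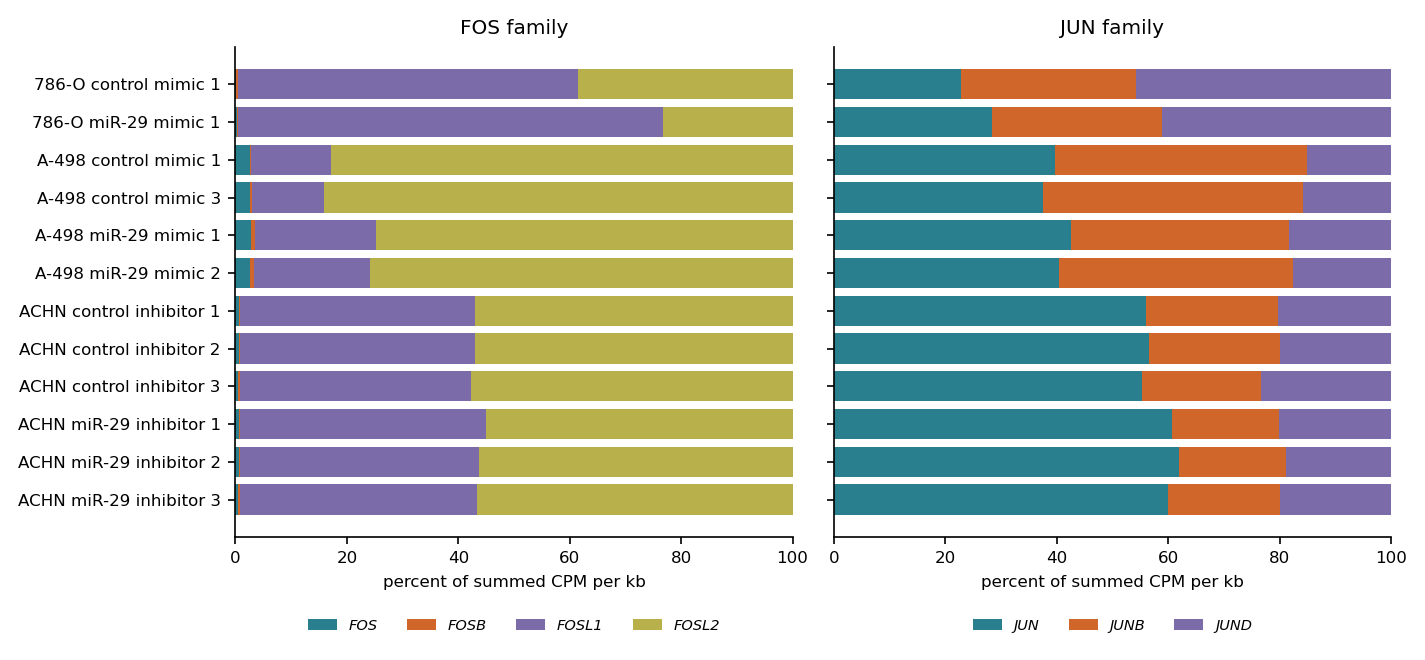
Share of each gene in the summed CPM per kb of its family, in percent, with 1 bar per library for the FOS family and for the JUN family. FOSL1 makes up 61.0% and 76.2% of the FOS family in 786-O but 13.0% to 21.7% in A-498, and JUN makes up 55.4% to 62.0% of the JUN family in ACHN.

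FOSL1 and FOSL2 together made up nearly all FOS family mRNA in every library, and the FOSL1 share of one line did not overlap with that of another. FOSL2 was 82.9% and 84.1% of the summed level in control A-498 and 74.8% and 75.8% with the mimic, while FOSL1 went from 13.0% and 14.3% to 20.9% and 21.7%. In 786-O the shift towards FOSL1 was in the same direction, from 61.0% to 76.2%, though FOSL2 went the other way there than in A-498 in its own level. In ACHN FOSL1 was 41.5% to 42.1% in controls and 42.6% to 44.2% with the inhibitor. The summed level was 190 and 199 CPM per kb in 786-O, 56.6 to 70.9 in A-498 and 84.2 to 95.9 in ACHN.

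The JUN family had no common leader. JUND was the first in control 786-O with 45.8% of the summed level, JUNB in control A-498 with 45.2% and 46.5%, and JUN in control ACHN with 55.4% to 56.6%. With the inhibitor, JUN in ACHN was at 59.9% to 62.0%, above every control. The summed level in 786-O was 131 CPM per kb in the control and 65.4 CPM per kb in the mimic library. In A-498 it was 39.9 and 43.1 in controls and 48.0 and 52.3 with the mimic, and in ACHN the groups overlapped (39.95 to 41.7 and 40.7 to 44.2).

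Among 8759 other genes whose log2 CPM averaged 3 or more in each of the lines, the 5 whose pattern was most like that of ATF3 were RELB, TRAF1, IRAK2, ZNF697 and IRF1. Pearson's r over the 12 libraries, after each line's mean was taken off, was 0.987, 0.985, 0.984, 0.978 and 0.977, and the libraries of a group share their treatment, so r follows the 3 treatment differences more than any within-group spread. TRAF1, an adaptor of TNF receptors, was the most similar also in size, at 2.19, -1.83 and 0.52 on the log2 scale in A-498, 786-O and ACHN against 2.40, -1.28 and 0.50 for ATF3. RELB, an NF-kappaB subunit, had smaller differences of 0.78, -0.41 and 0.11. Within the family, r with ATF3 was 0.919 for FOSB, 0.826 for JUN, 0.734 for FOSL1 and 0.695 for JUND, and 0.416, 0.359 and 0.055 for FOSL2, JUNB and FOS.

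**Figure D5:**
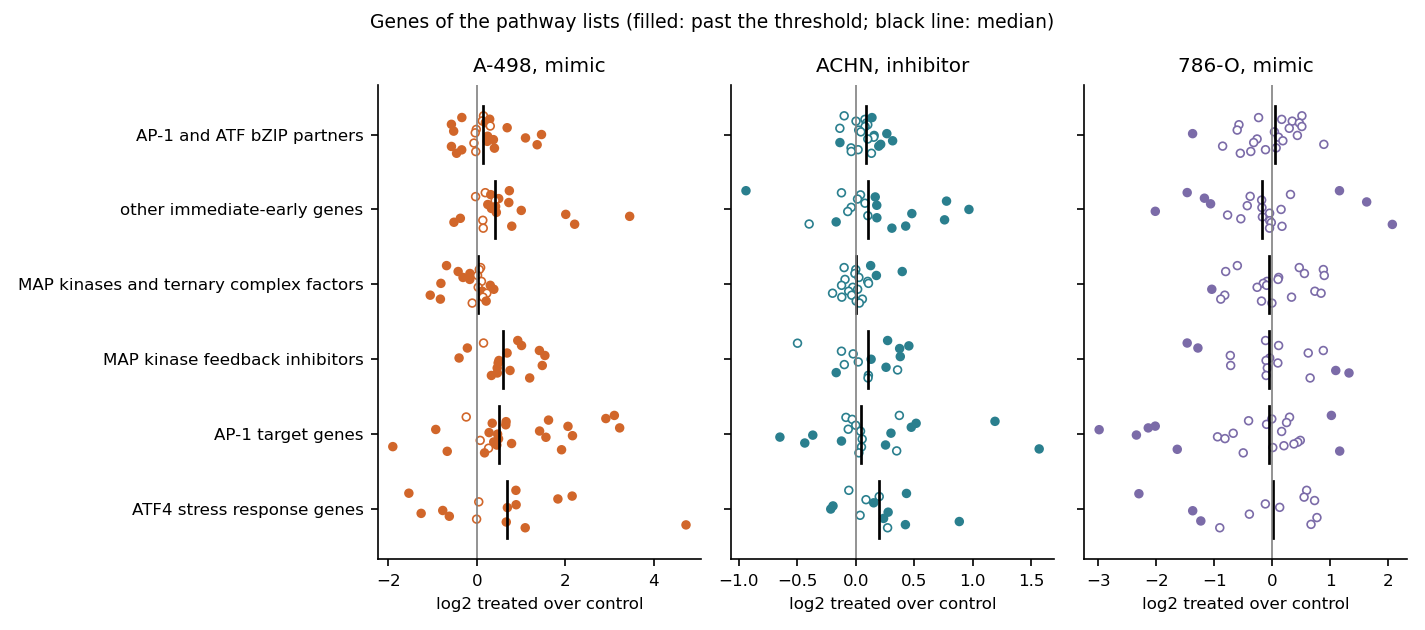
Log2 treated over control of the genes on 6 lists from the AP-1 pathway in A-498, ACHN and 786-O, filled where they passed the threshold (an adjusted p under 0.05, or 2-fold in 786-O), with black lines for the medians. The feedback inhibitors and target genes lie mostly to the right of 0 in A-498 (medians 0.59 and 0.49) and around 0 in 786-O (-0.06 and -0.05).

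The genes of each list that are named with their values are mainly those with the largest change among called genes of average log2 CPM at least 1. MAP kinases signal to AP-1 and induce their own inhibitors. Of 20 MAP kinases, their kinases and ternary complex factors, 8 fell and 4 rose in A-498 with the mimic, with a median log2 change of 0.02. These 12 of 20 (60.0%) compare with 52.5% of all genes tested there, and in 786-O 1 of the 20 was past 2-fold, lower, against 15.7% of all genes. MAP2K6, a kinase of p38, fell by 1.05 (SE 0.072), the transcription factor ELK1 fell by 0.83 (SE 0.070), and MAPK14 (p38 alpha) fell by 0.81 (SE 0.045). The split depended on scaling, being 6 lower and 7 higher with library size. Of 16 MAP kinase feedback inhibitors, the phosphatases and adaptors that ERK and JNK signalling induces and that switch it off, 13 rose and 2 fell in A-498 (93.8% called; median 0.59). The rises were led by the phosphatase DUSP8 (1.54, SE 0.12), SPRY1 (1.48, SE 0.13) and the ERK phosphatase DUSP6 (1.41, SE 0.14), and the genes that fell were DUSP5 (-0.22) and DUSP10 (-0.40). In 786-O, 2 feedback inhibitors were past 2-fold in each direction, and DUSP8, SPRY1 and DUSP6 were at -0.72, -0.72 and 0.88.

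In ACHN, of 20 kinases and factors tested, 3 rose with the inhibitor (15.0% called, against 31.7% of all genes tested there), with a median of 0.0012, and with library size or DESeq2 2 rose and 1 fell. Among those that rose were MAPK8 (JNK1; 0.40, SE 0.048) and MAPK10 (JNK3; 0.18). When single libraries were left out, 1 to 8 passed (1 without any of the control libraries or without inhibitor replicate 1, 8 without inhibitor replicate 2, the library that stood apart). MAPK8 was at -0.42 in A-498 and -0.80 in 786-O. Of 15 feedback inhibitors tested, 6 rose and 1 fell (46.7% called; median 0.11), led by DUSP5 (0.45, SE 0.051), DUSP10 (0.38) and DUSP6 (0.37), which were at -1.28, -0.04 and 0.88 in 786-O.

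Other immediate-early genes, which share the rapid induction of FOS and JUN, mostly rose in A-498. There 75.0% were called, against 52.5% of all genes tested (25.5% higher and 27% lower). Of 20 tested, 13 rose and 2 fell (CCN1 and SRF), with a median of 0.42. Among those of average log2 CPM at least 1, NR4A2, an orphan nuclear receptor, rose by 2.01 (SE 0.16) from 1.02 ± 0.25 to 4.10 ± 0.19 CPM (SD, n = 2), followed by the antiproliferative gene BTG2 (1.00, SE 0.044) and the phosphatase subunit PPP1R15A (0.79, SE 0.046). Below that level NR4A3 and ARC, named here after their values were seen, rose by 3.46 and 2.21. In ACHN 9 of 19 rose and 2 fell (EGR1 and SRF), with a median of 0.10. These 57.9% called compare with 31.7% of all genes tested there. The rises were led by BTG2 (0.97, SE 0.053), KLF4 (0.78, SE 0.13) and CCN2 (0.76, SE 0.045). The count of 11 called there was 7 without control replicate 3 or without inhibitor replicate 3. Of 21 tested in 786-O, 4 were past 2-fold lower and 3 higher, with a median of -0.17. These 33.3% compare with 15.7% of all genes tested there. BTG2 was at -2.02 in 786-O, and so, with KLF4 at -1.06, was lower there and higher in the other lines, as ATF3 was. The 3 genes past 2-fold higher in 786-O were EGR1 (1.16), KLF2 (1.63) and ARC (2.07, under 1 CPM in both libraries).

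In A-498, 69.6% of the tested genes for other bZIP factors, related to FOS, JUN and ATF3, were called, against 52.5% of all genes. Of the 23 tested, 10 rose and 6 fell, with a median of 0.15. The risers were led by CREB5 (1.46, SE 0.069), the small MAF protein MAFF (1.36, SE 0.074) and DDIT3, which encodes the stress factor CHOP (1.10, SE 0.062). In 786-O, CREB5 alone of the 22 tested was past 2-fold (4.55%, against 15.7% of all genes tested there). It was lower by a log2 ratio of -1.37, while MAFF was at 0.89 and DDIT3 at 0.11. In ACHN 6 of 22 rose and 1 fell (median 0.09), and these 31.8% were about the share of all genes called there (31.7%). Among those that rose were CEBPB (0.31, SE 0.092), CREB3 (0.26, SE 0.046) and MAFF (0.21, SE 0.067). That count of 7 fell to 3 without control replicate 1 or 3 or inhibitor replicate 1, and to 4 without control replicate 2.

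Genes known as AP-1 targets include proteases, cytokines and growth factors. In A-498, 19 of 25 tested rose and 3 fell (CCL2, EDN1 and IL1B), with a median of 0.49. These 88.0% called compare with 52.5% of all genes tested there. With library size 20 rose and 3 fell in A-498, and with DESeq2 15 rose and 2 fell. Some that rose had few reads, among them MMP3, MMP10, MMP13, IL1A and IL11, with means under 1 CPM in both A-498 groups. The chemokine CXCL8 rose by 3.23 (SE 0.071), from 4.46 ± 0.11 to 41.5 ± 1.2 CPM (SD, n = 2). The EGF receptor ligand AREG rose by 2.16 (SE 0.087) and the cytokine IL6 by 2.06 (SE 0.10). In 786-O these 3 genes were at -2.14, -0.94 and -2.02. Of the 22 targets tested there, 12 were below 0 and 10 above, with a median of -0.05. Past 2-fold, 5 were lower and 2 higher (31.8%, against 15.7% of all genes tested in 786-O). In ACHN 6 of 20 rose and 4 fell (median 0.04), so 50% were called, against 31.7% of all genes tested there. With library size or with DESeq2, 5 rose and 5 fell. There IL6 rose by 0.52 (SE 0.072) and EREG fell by 0.65 (SE 0.050). All the gene lists described here, this one included, were written knowing that CXCL8 and ATF3 were higher in A-498. The direction of any of these lists is therefore not independent evidence.

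The ATF4 stress response genes are a group induced, like ATF3, when amino acids run short or proteins misfold. Of 14 listed, 8 rose and 4 fell in A-498 (median 0.68). These 85.7% called compare with 52.5% of all genes tested there. CHAC1, which degrades glutathione, rose by 2.16 (SE 0.069) and SESN2, an inhibitor of mTORC1, rose by 1.83 (SE 0.045), whereas TRIB3, a pseudokinase induced by ATF4 and CHOP, fell by 1.54 (SE 0.055). TRIB3 was also lower in 786-O (-2.30), where CHAC1 and SESN2 were at 0.55 and 0.73. In ACHN 6 of 13 rose and 2 fell (median 0.20), so 61.5% were called, against 31.7% of all genes tested there. The rises were led by STC2 (0.88, SE 0.051), TRIB3 (0.43, SE 0.050) and NUPR1 (0.42, SE 0.048). In A-498 and in ACHN, genes of this group moved in both directions.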

How the data were processed

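The authors sequenced stranded, rRNA-depleted libraries, and the submitters' notes name HISAT2, HTSeq and GRCh38. The deposited raw counts per Ensembl gene were made by the authors with a strict intersection of reads and exons, without normalisation; their DESeq2 tables of fold changes and p-values for each line were not used. Symbols (98.1% of 58051 genes) and exon lengths came from GENCODE v44. The 5 summary lines of each count file, holding 37.2% to 48.0% of reads, stayed out of library sizes. Groups were taken from the labels; further A-498 libraries, set aside by the study for doubtful labels, were not analysed here.

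The members, lists and tests were chosen with earlier results of these data known. Counts were tested with edgeR 4.0.16 (quasi-likelihood, TMM, filterByExpr, Benjamini-Hochberg over all genes, two-sided) in R 4.3.3, within A-498, within ACHN, and over the 6 controls by line; the steps were tested on simulated data. Genes with an adjusted p under 0.05 were called. The log2 ratio of 786-O used prior count 2, over genes whose counts in both libraries summed to 10 or more. Levels are CPM with TMM factors over all 12 libraries, and differences were scaled within each comparison. Counting intervals are exact binomial (95%) without the prior, on the scaling of the ratio, and cover counting error only. Named list genes were, per list and line, up to 3 called genes with the largest change among those of average log2 CPM at least 1. Some genes that this rule chose are not reported here, though the counts and medians of their lists include them. Alternatives were library size, DESeq2 1.42.0, no filter, prior count 0.5, leaving out each library, a replicate block in ACHN and, chosen after seeing the data, subtraction of the median of genes of like GC content.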

Additional observations from a re-analysis of the deposited data

Results flagged for a closer look

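For 5 members, both A-498 mimic libraries lay above both controls while the 786-O mimic library lay below its control, and this difference between the lines was not tested. Of 17473 genes tested in both lines, 11.8% met the same rule. The log2 mimic effect in 786-O minus that in A-498 was -3.68 for ATF3, -2.50 for FOSB, -1.69 for JUND, -1.11 for JUN and -0.83 for FOSL2. The 786-O effect rests on 1 library per group. No group had the 4 libraries needed for a test of single outlying samples, though ACHN inhibitor replicate 2 differed from the other inhibitor libraries more than they did from each other.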

How the results depend on the processing

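The number of genes past 2-fold in 786-O was 5712 with no filter on low counts, against 3197, and the members past 2-fold stayed at 3. Leaving out single libraries gave 2 to 4 members called in ACHN, against 4, and 6 to 7 in A-498, against 7. With library size, DESeq2 and no filter, the members called were 8, 6 and 6 in A-498 and 3, 4 and 4 in ACHN. Between control A-498 and control ACHN 6 to 8 members were called, FOSB (-0.57) being lost with DESeq2, and between 786-O and either line all 8 under every alternative run. Of the counts over all genes, members and all list genes, 100 stayed within 1.5 times their value and 5 did not, namely the 786-O count and the 4 counts of 2 ACHN members; of the counts for single lists 108 did and 11, all in ACHN, did not. No called member value changed sign; signs of list genes were not compared. JUNB in A-498, which was not called, ranged from -0.0058 to 0.21. Subtracting the median of genes of like GC content, chosen after seeing the data, moved FOSL2 between A-498 and ACHN to -0.053. ACHN replicate numbers did not pair the libraries (correlation of deviations 0.041, -0.050 and -0.0043 for numbers 1, 2 and 3), and with a replicate block 5763 genes, 58 list genes and 4 members were called. No paired analysis was possible in A-498 because its groups share 1 number, nor in 786-O with 1 library per group. Leaving out 1 A-498 library leaves a lone library, assumed to vary like the other group. Low counts limit FOS and FOSB most.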
